A study of Mus musculus with 72 samples.

Results

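Control mouse embryonic stem cells were compared before and after 2 days in a medium without serum or leukemia inhibitory factor (LIF). The comparison holds the samples labelled wild-type at day 0 and day 2, which are 6 of the 18 biological samples of the study and 24 of its 72 sequenced libraries. The study asks what the nuclear pore subunit Nup133 does in cells that become neuronal progenitors, and these samples are its controls with intact Nup133. They form 3 series, each with a day 0 and a day 2 sample: 2 biological replicates of the line HM1 and 1 series of the line #1A4. HM1 is Nup133+/+, and #1A4 is Nup133+/+ with a Sox1gfp/+ genotype, so that 1 of its Sox1 alleles carries gfp. Both lines are XY with 40 chromosomes, per the labels. Day 0 cells had grown in serum and LIF on Mitomycin-C inactivated fibroblasts (DR4 mouse embryonic fibroblasts) over gelatin. They were trypsinised, freed of feeder cells by a short plating step on gelatin-free wells, and collected. Day 2 cells were the same suspension grown in N2B27, a mix of Neurobasal and DMEM-F12 with BSA and the N2 and B27 supplements, on gelatin without feeders. Medium, loss of LIF and serum, loss of feeders, time and the time since trypsin and plating changed together, and their parts cannot be told apart.

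Embryonic stem cells in serum and LIF hold naive pluripotency, the state of the early epiblast, which rests on a network of transcription factors such as Klf4, Esrrb, Tfcp2l1 and Nanog around the core factors Oct4 (Pou5f1) and Sox2. LIF binds its receptor and gp130 (Lifr, Il6st) and activates Stat3, which keeps several of these factors active. In N2B27 without LIF, cells are known to leave this state, pass a formative stage like the epiblast after implantation, and turn to neuroectoderm. N2B27 also lacks the lipoproteins, growth factors and BMP activity that serum brings.

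The 6 samples held 43381001, 45804372 and 26645967 gene counts at day 0 and 42705160, 41587975 and 48280799 at day 2, in the order HM1 series 1, HM1 series 2 and #1A4, which all values below follow. The first principal component of log2 CPM (counts per 1000000 on TMM-scaled library sizes) took up 78.3% of the variance and separated the days, and the second, with 12.2%, separated #1A4 from HM1. Nup133 itself was at 228, 235 and 317 CPM at day 0 and 223, 231 and 260.5 CPM at day 2, and its change was not called (log2 fold change -0.11 ± 0.08, adjusted p = 0.25; ± gives standard errors for all log2 fold changes below). Of 14 fibroblast markers 12 were measurable. Their summed level was 179 ± 42.2 CPM at day 0 and 165 ± 12.5 CPM at day 2 (SD, n = 3 a day), and the single samples were at 215, 190.3 and 133 CPM at day 0 and 167, 176 and 151 CPM at day 2. Of the 12, 5 fell and 3 rose, with a median log2 fold change of -0.44. Thy1, which neurons carry as well, rose from 3.52, 2.78 and 4.41 CPM at day 0 to 29.5, 30.2 and 31.9 CPM at day 2, and Mmp2 from 28.3, 23.9 and 15.5 CPM at day 0 to 57.7, 48.8 and 50.2 CPM at day 2. Fap held no more than 8 counts and Lum no more than 5 in any of the 6 samples. The defining collagens Col1a1 and Col1a2 were at 58.1, 56.2 and 37.3 CPM at day 0 and 20.7, 33.4 and 23.0 CPM at day 2, and at 53.7, 45.8 and 33.9 CPM at day 0 and 22.2, 23.6 and 13.9 CPM at day 2. The part of remaining feeder RNA in the results below was not tested. The labels do not say whether the replicates are separate cultures, so p-values measure the spread between these samples, which may in part be technical.

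Of 16679 genes tested, 10123 (60.7%) changed between day 0 and day 2 at an adjusted p below 0.05 (edgeR quasi-likelihood test with the series as a block, Benjamini-Hochberg), 5203 of them higher and 4920 lower at day 2. Of all genes tested 31.2% were called higher and 29.5% lower, the shares against which the counts of gene lists below are read. At least 2-fold changes were called for 4066 genes (24.4%), 2618 higher (15.7%) and 1448 lower (8.68%). The median log2 fold change of all genes tested was 0.02. Of the 4066 genes, 4061 moved the same way in all 3 series. The values of the 2 days did not overlap for 10731 genes (64.3%). Fold changes past 16-fold were called for 55 genes that rose and 82 that fell. Gene lists are described below by the number of their members that rose or fell and by their median log2 fold change, beside these values for all genes. In such bulk samples fewer cells of a type and less RNA per cell cannot be told apart.

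**Figure D1:**
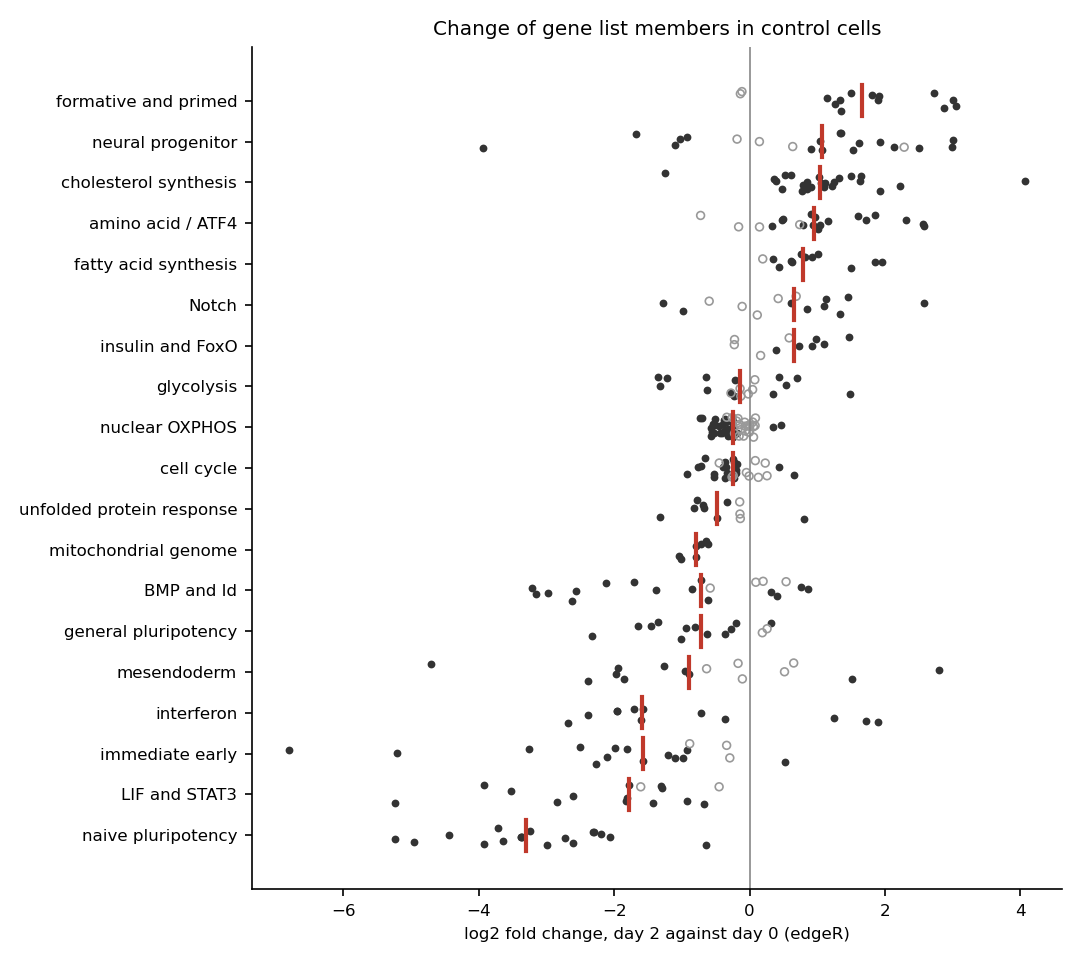
Log2 fold change at day 2 against day 0 (x axis) of the members of 19 gene lists (y axis), from the edgeR fit of 3 control series. Filled points are genes called at an adjusted p below 0.05, open points are genes that were not called, and red bars are list medians, which run from -3.30 for naive pluripotency genes to 1.66 for formative and primed genes.

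Naive pluripotency genes fell together. All 18 members of the list were called lower at day 2, 17 of them at least 2-fold, with a median log2 fold change of -3.30. Klf4, a LIF target and one of the reprogramming factors (chr4:55527143-55532466 in mm10), fell the most, from 343, 329 and 187 CPM at day 0 to 7.53, 10.2 and 5.13 CPM at day 2 (log2 fold change -5.23 ± 0.12, adjusted p = 4.7e-06). #1A4 was the lowest series at both days, and no sample of one day reached the range of the other. Tbx3, a T-box factor downstream of LIF, fell from 99.5, 131 and 133.02 CPM at day 0 to 2.55, 3.35 and 6.29 CPM at day 2 (log2 fold change -4.96 ± 0.20, adjusted p = 2.0e-05). Prdm14, which holds back FGF receptor signalling and DNA methylation in naive cells, was at 35.4, 41.5 and 23.4 CPM at day 0 and 1.98, 1.78 and 0.904 CPM at day 2 (log2 fold change -4.45 ± 0.14, adjusted p = 5.8e-06). Tfcp2l1, a Stat3 target of the naive network, went from 463, 618 and 637 CPM at day 0 to 35.2, 40.5 and 37.1 CPM at day 2 (log2 fold change -3.92 ± 0.10, adjusted p = 4.7e-06). The days lay far apart in all 4 genes.

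Others of the network fell less steeply. The nuclear receptors Nr5a2 (-3.71 ± 0.16), Nr0b1 (-3.37 ± 0.17) and Esrrb (-3.24 ± 0.09) had log2 fold changes close to that of Zfp42 (Rex1), a widely used reporter of the naive state that went from 519, 577 and 683 CPM at day 0 to 53.1, 69.9 and 48.9 CPM at day 2 (log2 fold change -3.38 ± 0.15, adjusted p = 1.8e-05). Nanog was at 563, 717 and 461 CPM at day 0 and 108, 95.8 and 61.8 CPM at day 2 (log2 fold change -2.73 ± 0.12, adjusted p = 1.4e-05), lowest at both days in #1A4. Klf2 fell from 389, 308 and 241 CPM at day 0 to 41.1, 44.9 and 31.2 CPM at day 2 and Klf5 from 95.8, 103 and 94.2 CPM at day 0 to 14.8, 17.9 and 15.3 CPM at day 2. The enzyme Tdh, which feeds threonine into one-carbon metabolism in mouse stem cells, had a log2 fold change of -2.31 ± 0.09. Dppa3 (-2.06 ± 0.10), a guard of maternal methylation marks, and Fbxo15 (-2.30 ± 0.10), an Oct4 target, were lower as well. Fgf4, the autocrine ligand that drives exit from the naive state, was the member that fell least, from 127, 154 and 185 CPM at day 0 to 72.3, 95.9 and 135 CPM at day 2 (log2 fold change -0.65 ± 0.08, adjusted p = 0.00063).

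The factors shared by naive and later pluripotent states changed much less. Of 14 such genes 11 fell and 1 rose, with a median log2 fold change of -0.72, and 5 of the 11 fell at least 2-fold. Pou5f1 stood at 997, 956 and 1104 CPM at day 0 and 765, 729 and 878 CPM at day 2, log2 fold change -0.37 ± 0.07, adjusted p = 0.0029. All 3 series fell by a similar share, and in a fit of all 18 samples, which shares the spread of the knockout lines, the change was no longer called (adjusted p = 0.30). Sox2 dropped from 379, 397 and 324 CPM at day 0 to 139, 153 and 111 CPM at day 2 (log2 fold change -1.46 ± 0.07, adjusted p = 1.5e-05). Tdgf1, the Nodal co-receptor Cripto, fell the most of the list, from 529, 463 and 456 CPM at day 0 to 90.7, 113 and 85.3 CPM at day 2 (log2 fold change -2.33 ± 0.11, adjusted p = 1.5e-05). Dppa2 and Trim28 had log2 fold changes of -1.65 ± 0.14 and -1.02 ± 0.08. Lin28a, which blocks maturation of let-7 miRNAs, was the gene that rose, from 536, 441 and 581 CPM at day 0 to 619, 606 and 699 CPM at day 2 (log2 fold change 0.31 ± 0.08, adjusted p = 0.011). Utf1 (0.26 ± 0.11, adjusted p = 0.075) and Foxd3 (0.19 ± 0.09, adjusted p = 0.12) were not called. In the fit of 18 samples, 6 of the 14 genes were called lower and none higher.

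Formative and primed epiblast genes rose. Of 14 genes, 12 were called higher, each at least 2-fold, and none lower, with a median log2 fold change of 1.66. Dnmt3b, a de novo DNA methyltransferase (chr2:153649453-153687730 in mm10), went from 405, 244 and 441 CPM at day 0 to 2757, 3103 and 2856 CPM at day 2 (log2 fold change 3.04 ± 0.21, adjusted p = 0.00014), the largest gain in CPM of any gene with a standard name. Pou3f1 (Oct6), a POU factor of the epiblast and early neural plate, rose from 18.7, 9.56 and 11.8 CPM at day 0 to 102, 106 and 78.2 CPM at day 2 (log2 fold change 2.88 ± 0.20, adjusted p = 0.00014). Sox3, a SoxB1 factor of neural competence, was at 3.65, 2.28 and 1.33 CPM at day 0 and 22.6, 18 and 16 CPM at day 2 (log2 fold change 3.01 ± 0.20, adjusted p = 4.5e-05). The days did not overlap in any of the 3 genes, as in 64.3% of all genes tested. Fgf5, the classical marker of the post-implantation epiblast, was at 20.9, 19.3 and 8.71 CPM at day 0 and 59.4, 53.9 and 62.2 CPM at day 2 (log2 fold change 1.90 ± 0.29, adjusted p = 0.0037). Otx2, a factor that opens formative enhancers, was at 97.9, 59.5 and 65.9 CPM at day 0 and 149.97, 175 and 159.5 CPM at day 2 (log2 fold change 1.15 ± 0.18, adjusted p = 0.0025). Otx2 missed the call in the fit of 18 samples (adjusted p = 0.054), and Fgf5 missed it when no low counts were filtered (adjusted p = 0.088). The zinc finger factors Sall2 (2.72 ± 0.19), Zic2 (1.35 ± 0.10) and Zic5 (1.26 ± 0.09), the Wnt effector Lef1 (1.81 ± 0.21) and the tight junction gene Cldn6 (1.33 ± 0.15) rose too. Wnt8a and Grhl2 were not called (adjusted p = 0.58 and 0.44).

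**Figure D2:**
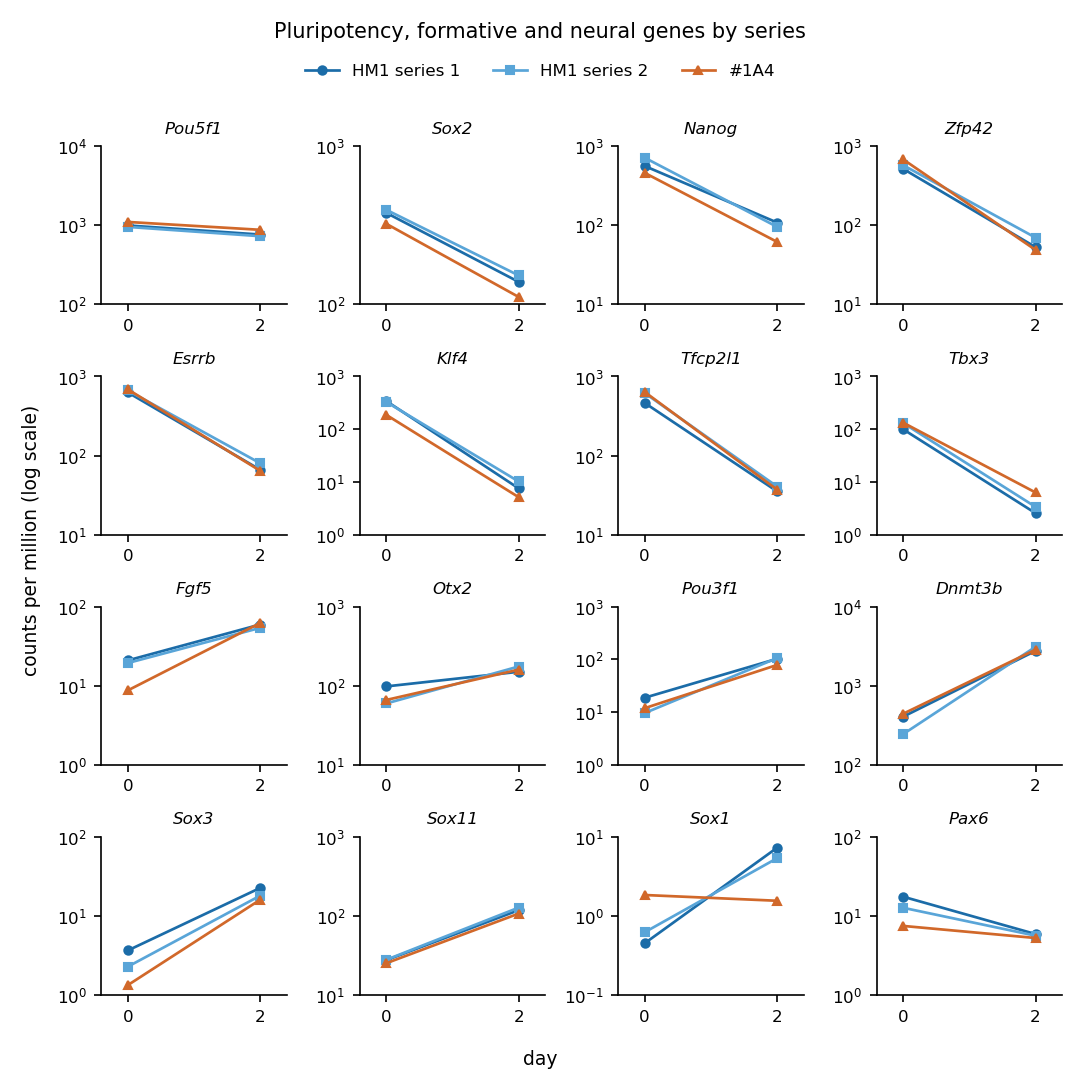
Level of 16 genes (y axes, CPM on a log scale with its own range in each panel) at day 0 and day 2 (x axes), with 1 line for each of the 3 control series. Naive genes such as Klf4 and Esrrb fall steeply in every series, Pou5f1 stays within 729 to 1104 CPM, Dnmt3b and Sox3 rise in every series, and Sox1 rises in the 2 HM1 series but not in #1A4.

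Early neural genes moved in both directions. Of 21 measurable neural progenitor genes 12 rose and 5 fell, with a median log2 fold change of 1.07. Sox11, a SoxC factor of neural precursors, rose from 27.5, 27.8 and 25.2 CPM at day 0 to 118, 127 and 107 CPM at day 2 (log2 fold change 2.13 ± 0.07, adjusted p = 5.8e-06), and its relative Sox4 from 58.5, 48.9 and 49.1 CPM at day 0 to 109, 108 and 112 CPM at day 2. The RNA-binding protein gene Msi1 (1.53 ± 0.09), the zinc finger gene Zfp521 (1.93 ± 0.19), the neural intermediate filament gene Nes (1.35 ± 0.34) and the receptor gene Prtg (1.04 ± 0.13) were higher at day 2. Six3, a forebrain factor, held at most 3 counts in each day 0 sample, and its level at day 2 was at least 4.31-fold higher. Sox21 fell from 35.2, 31.3 and 13.7 CPM at day 0 to 2.35, 1.99 and 0.885 CPM at day 2 (log2 fold change -3.94 ± 0.12, adjusted p = 5.8e-06), and Pax6, a factor of the neural plate, fell from 17.5, 12.7 and 7.46 CPM at day 0 to 5.89, 5.61 and 5.25 CPM at day 2 (log2 fold change -1.10 ± 0.21, adjusted p = 0.0036). Hesx1 of the forebrain was below 3 CPM and fell, with a log2 fold change of -1.68 ± 0.35. Neuronal genes were sparse, and of 7 that were measurable 3 rose (Map2, Elavl3 and Neurod1) and 1 fell (Stmn2, from 217, 245 and 306 CPM at day 0 to 105, 77.0 and 68.9 CPM at day 2). The Stmn2 call was lost without HM1 series 2 (adjusted p = 0.081).

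Sox1, the earliest marker of definitive neuroectoderm (chr8:12395295-12400126 in mm10), was at 0.450, 0.620 and 1.84 CPM at day 0 and 7.27, 5.36 and 1.55 CPM at day 2. It rose in both HM1 series and did not rise in #1A4, where 1 allele carries gfp, and over the 3 series its change was not called (log2 fold change 2.28 ± 0.90, adjusted p = 0.086). Without #1A4 its log2 fold change was 3.54 (adjusted p = 1.2e-05), and 4 other settings called it as well, among them DESeq2 (adjusted p = 0.043) and the fit without the series as a block (adjusted p = 0.017). The reads of #1A4 that come from the allele with gfp could not be separated here.

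Genes of the LIF receptor and its effector Stat3 fell with the withdrawal of LIF. Of 15 genes 13 fell, none rose, and 11 fell at least 2-fold, with a median log2 fold change of -1.79. Klf4, Klf5 and Tfcp2l1 belong to both this list and the naive one. Socs3, the feedback inhibitor that Stat3 induces, fell from 49.9, 58.5 and 68.6 CPM at day 0 to 9.58, 8.17 and 6.94 CPM at day 2 (log2 fold change -2.84 ± 0.17, adjusted p = 5.0e-05). Bcl3, a nuclear partner of NF-kB, fell from 27.5, 34.7 and 27.9 CPM at day 0 to 2.55, 2.49 and 2.71 CPM at day 2 (log2 fold change -3.53 ± 0.13, adjusted p = 9.3e-06). The receptor chains Lifr (125, 121.1 and 119 CPM at day 0 to 33.3, 36.7 and 32.7 CPM at day 2) and Il6st (144, 159 and 115 CPM at day 0 to 56.4, 63.5 and 49.8 CPM at day 2) and Stat3 itself (164, 166 and 153 CPM at day 0 to 45.7, 48.9 and 45.3 CPM at day 2) dropped in each series with narrow spreads. The kinase genes Pim1 and Pim3 had log2 fold changes of -1.31 ± 0.23 and -1.42 ± 0.10, and Myc of -0.93 ± 0.16. Pim2, which is outside the list and was picked after its values were seen, rose instead, from 166, 98.9 and 61.3 CPM at day 0 to 869, 785 and 517 CPM at day 2 (log2 fold change 2.82 ± 0.14, adjusted p = 2.8e-05). Gbx2 (-1.61 ± 0.68, adjusted p = 0.10) and Cish (-0.45 ± 0.21, adjusted p = 0.100) were not called. Gbx2 overlaps the opposite-strand gene D130058E05Rik over 44.3% of its transcript, and without HM1 series 1 or without #1A4 it was called lower (adjusted p = 0.019 and 0.0098).

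Immediate early genes, which serum and growth factors switch on within minutes through Srf and the MAP kinases, were high at day 0 and low at day 2. Day 0 cells were collected after trypsin and a short plating step, and the parts of serum and of this handling were not tested. Of 17 genes 13 fell and 1 rose, with a median log2 fold change of -1.57. Fosb (chr7:19302696-19310051 in mm10) fell most, from 235, 90.5 and 26.1 CPM at day 0 to 0.901, 0.685 and 0.885 CPM at day 2 (log2 fold change -6.81 ± 0.61, adjusted p = 0.00090). Fos was at 317, 184 and 57.2 CPM at day 0 and 3.78, 4.70 and 3.91 CPM at day 2 (log2 fold change -5.20 ± 0.54, adjusted p = 0.0014), and Egr1 at 433, 200.3 and 123.3 CPM at day 0 and 39.3, 36.7 and 41.3 CPM at day 2 (log2 fold change -2.50 ± 0.39, adjusted p = 0.0053). At day 0 HM1 series 1 was the highest and #1A4 the lowest in each of these 3 genes, and at day 2 the series lay within a narrow band. Egr3 (-3.26 ± 0.38), Egr2 (-2.27 ± 0.40), Fosl1 (-2.11 ± 0.39), Ier3 (-1.99 ± 0.28), Junb (-1.81 ± 0.35) and Nr4a1 (-1.57 ± 0.19) fell likewise. The gene that rose was Srf, the serum response factor itself, at 113, 104 and 66.5 CPM at day 0 and 131, 126 and 141 CPM at day 2 (log2 fold change 0.52 ± 0.18, adjusted p = 0.045). Its rise was largest in #1A4. No gene of the list was called higher without a filter on low counts, with 9 or 18 samples in the fit, or without HM1 series 2. Jun was at 97.7, 58.0 and 18.2 CPM at day 0 and 27.1, 20.8 and 33.5 CPM at day 2 and was not called (adjusted p = 0.26), as were Btg2 and Atf3. Without HM1 series 2, 6 of the 17 genes were called lower, and Fosb, Fos and Egr1 missed the threshold (adjusted p = 0.098, 0.11 and 0.18), with log2 fold changes of -6.63, -5.13 and -2.51. Without a filter on low counts 8 were called lower. The median within a series was -1.94 and -1.78 in HM1 and -0.81 in #1A4.

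**Figure D3:**
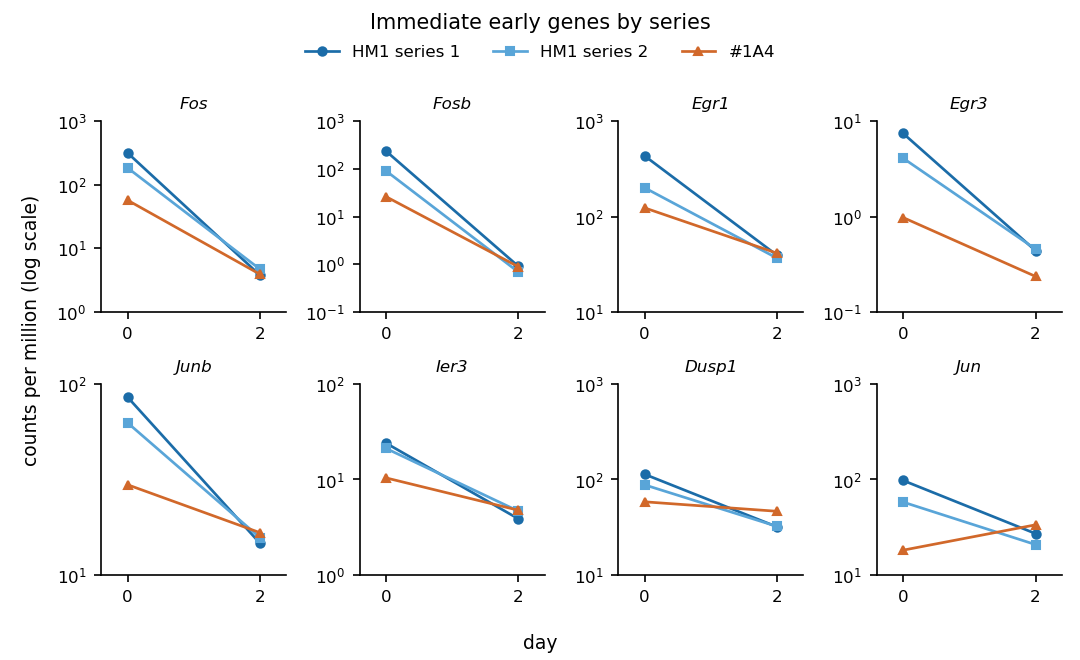
Level of 8 immediate early genes (y axes, CPM on a log scale with its own range in each panel) at day 0 and day 2 (x axes), with 1 line for each of the 3 control series. The series spread at day 0, where Fos lies between 57.2 and 317 CPM, and come together at day 2, where it lies between 3.78 and 4.70 CPM, while Jun falls in HM1 and is higher at day 2 in #1A4.

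Targets of the mechanical and cytoskeletal factors Yap and Mrtf did not share a direction. Of 13 genes 4 rose (Cnn1, Myl9, Amotl2 and Ajuba) and 2 fell (Ccn2 and Axl), with a median of 0.29. The median was -0.15 without #1A4, and 0.51 and 0.53 without HM1 series 1 and series 2. Ccn2 (CTGF) was at 193, 172 and 80.5 CPM at day 0 and 65.1, 64.9 and 62.9 CPM at day 2, and the smooth muscle calponin Cnn1 at 20.2, 17.3 and 5.86 CPM at day 0 and 44.3, 38.7 and 46.6 CPM at day 2. #1A4 was the lowest series at day 0 in both. Neither call held without HM1 series 2 (adjusted p = 0.23 and 0.18), nor did that of Myl9 (adjusted p = 0.19). That setting left 2 genes higher and 1 lower, and without #1A4 4 were higher and 4 lower.

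Of 19 ligands, receptors, effectors and targets of the BMP pathway 11 fell and 4 rose, with a median of -0.72. Id1 fell from 24.8, 23.6 and 17.9 CPM at day 0 to 3.25, 2.37 and 1.91 CPM at day 2 (log2 fold change -3.15 ± 0.14, adjusted p = 1.4e-05), Id3 from 72.5, 67.9 and 37.7 CPM at day 0 to 18.7, 11.6 and 10.4 CPM at day 2 (log2 fold change -2.12 ± 0.14, adjusted p = 5.4e-05), and Id2 and Id4 had log2 fold changes of -1.39 ± 0.11 and -2.98 ± 0.18. The Id proteins block neural bHLH factors. The inhibitory Smad7 (-2.62 ± 0.08), Msx2 (-3.21 ± 0.26) and the ligand Bmp4 (26, 35.3 and 48.7 CPM at day 0 to 5.43, 7.60 and 5.27 CPM at day 2) fell too. Bmp7, Chrd, Smad1 and the receptor Bmpr1a were the 4 that rose. Without HM1 series 1 none of these 4 was called, while 9 genes still were called lower.

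Nodal and its feedback antagonists fell. The antagonist Lefty2 went from 411, 441 and 334 CPM at day 0 to 15.4, 17.2 and 6.64 CPM at day 2 (log2 fold change -5.00 ± 0.22, adjusted p = 3.8e-05) and Lefty1 from 178, 175 and 137 CPM at day 0 to 49.9, 49.7 and 16.4 CPM at day 2 (log2 fold change -2.22 ± 0.29, adjusted p = 0.0030), a call lost without HM1 series 2 (adjusted p = 0.061). Nodal fell from 64.8, 72.7 and 62.9 CPM at day 0 to 31.2, 25.7 and 23.6 CPM at day 2 (log2 fold change -1.32 ± 0.10, adjusted p = 8.1e-05), as did Gdf3 and the convertase gene Pcsk6. #1A4 had the lowest level of both Lefty genes at both days. The transducers Smad3, Foxh1 and Acvr2b rose by log2 fold changes of 0.71 ± 0.15, 0.45 ± 0.11 and 0.60 ± 0.12. Cer1, a secreted antagonist, rose from 0.325, 0.827 and 0.703 CPM at day 0 to 5.34, 5.13 and 2.34 CPM at day 2 (log2 fold change 2.79 ± 0.40, adjusted p = 0.0011). In all, 8 of 16 genes fell and 6 rose.

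Of 25 Wnt pathway genes 10 fell and 6 rose, with a median of -0.34. Under the stricter count filter, which left 20 of them, 7 fell and 6 rose, and the median was -0.02. The direct targets Notum (37.2, 39.4 and 45.3 CPM at day 0 to 2.99, 3.63 and 2.06 CPM at day 2) and Sp5 (-3.13 ± 0.27) and the ligands Wnt5a, Wnt7b and Wnt3 fell at least 2-fold. Cdx1 held at most 3 counts in each day 2 sample and was lower by at least a factor of 18 than at day 0. Lef1, Nkd1 (2.50, 2.67 and 1.45 CPM at day 0 to 13, 11 and 8.49 CPM at day 2), Sfrp2 and Tcf7 rose. Axin2, the most general Wnt target, was at 30.8, 39.7 and 28.1 CPM at day 0 and 28.8, 26.6 and 19.1 CPM at day 2 (log2 fold change -0.41 ± 0.11, adjusted p = 0.018).

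Notch and Hedgehog components changed with no single direction. In the Notch list 7 of 14 genes rose, among them Notch2 (1.10 ± 0.08), Jag2 (1.12 ± 0.15), Dll3 (1.46 ± 0.17) and, at under 1 CPM, Dll4 (2.57 ± 0.35), while the ligand Jag1 (-0.99 ± 0.11) and the target Hes1 (-1.28 ± 0.10) fell. Of 9 Hedgehog genes the transducers Smo (32.1, 30.1 and 29.6 CPM at day 0 to 95.8, 82.1 and 88.7 CPM at day 2) and Gli3 and the ligand Shh rose, whereas the targets Gli1 (65.4, 69.2 and 74.9 CPM at day 0 to 25.9, 31.6 and 30.7 CPM at day 2) and Hhip fell with Gli2 and Ihh. Of 16 genes of the FGF and ERK list 5 rose and 7 fell. Spry4, an ERK feedback inhibitor, fell from 72.6, 68.3 and 130.4 CPM at day 0 to 37.1, 42.4 and 41.7 CPM at day 2 (log2 fold change -1.10 ± 0.18, adjusted p = 0.0033), and Dusp6 at 99.1, 79.7 and 72.2 CPM at day 0 and 89.1, 93.4 and 102 CPM at day 2 was not called (adjusted p = 0.21). The receptor Fgfr1 rose from 119.5, 119.6 and 102 CPM at day 0 to 199.99, 171 and 202 CPM at day 2.

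In each of 4 lists of markers of other fates more genes fell than rose, and part of each list was not called. The lists share members: Cdx2 is in the mesendoderm and trophectoderm lists, and Foxa2 and Sox17 are in the mesendoderm and primitive endoderm lists. Of 15 mesendoderm genes 8 fell and 2 rose, with a median of -0.89. Brachyury (T), the primitive streak factor, fell from 40.8, 54.2 and 21 CPM at day 0 to 14.1, 11.2 and 5.03 CPM at day 2 (log2 fold change -1.95 ± 0.15, adjusted p = 8.6e-05), and Eomes from 27.4, 32.1 and 17.2 CPM at day 0 to 7.27, 6.23 and 5.58 CPM at day 2 (log2 fold change -1.97 ± 0.16, adjusted p = 9.1e-05). Evx1 went from 2.92, 3.38 and 2.77 CPM at day 0 to 0.0879, 0.0913 and 0.157 CPM at day 2 (log2 fold change -4.70 ± 0.33, adjusted p = 5.8e-05). The 2 that rose were Cer1 and Tbx6 (0.375, 0.552 and 0.430 CPM at day 0 to 1.34, 1.39 and 1.12 CPM at day 2). Sox17 of definitive endoderm stayed below 1.5 CPM and was not called (adjusted p = 0.18). Without #1A4, 4 of the 15 were called higher and 8 lower.

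Among 15 primitive endoderm genes 6 fell, 3 rose and 6 were not called, with a median of -0.12 and a summed level of 585 ± 77.3 CPM at day 0 and 517 ± 24.4 CPM at day 2 (SD, n = 3 a day). Lama1, a laminin chain, fell from 94, 130.2 and 107 CPM at day 0 to 18.2, 20.6 and 20.4 CPM at day 2 (log2 fold change -2.47 ± 0.09, adjusted p = 7.5e-06) and Pdgfra from 8.52, 8.16 and 5.74 CPM at day 0 to 1.49, 1.301 and 1.55 CPM at day 2. Gata6 was at 1.52, 2.80 and 1.68 CPM at day 0 and 1.01, 0.913 and 0.727 CPM at day 2, and its call was lost without HM1 series 2 (adjusted p = 0.098). That setting left 3 primitive endoderm genes lower and 3 higher, and without #1A4 6 were lower and 5 higher. Of 9 trophectoderm genes Tfap2c, shared with the germ line, fell from 94.5, 100.03 and 51.6 CPM at day 0 to 10.1, 11.8 and 6.25 CPM at day 2 (log2 fold change -3.12 ± 0.08, adjusted p = 4.7e-06), as did Tead4, Hand1 and Cdx2, and Ascl2 rose. Hand1 was not called without HM1 series 1 or series 2 (adjusted p = 0.11 and 0.25), which each left 2 trophectoderm genes lower, and without #1A4 5 were lower and 2 higher. Of 4 surface ectoderm genes 3 fell and none rose. Grhl3 of the surface ectoderm fell from 32.2, 36.7 and 25.6 CPM at day 0 to 2.92, 3.26 and 3.75 CPM at day 2 (log2 fold change -3.24 ± 0.17, adjusted p = 2.1e-05).

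Genes of the rare state like the 2-cell embryo were close to the limit of counting. Of 7 measurable members 6 fell and none rose, all of them below 3 CPM at day 0. Their median log2 fold change was -2.51, or -2.34 with Tcstv3, at no more than 3 counts in each day 2 sample, set to its bound of at least 5.05-fold lower. The Zscan4 genes and the Usp17l genes are multigene families with near-identical copies, so their separate levels are uncertain. Interferon-stimulated genes split: of 12, 9 fell and 3 rose. Ifitm1 fell from 246, 226 and 138 CPM at day 0 to 56.4, 63.6 and 36.8 CPM at day 2 (log2 fold change -1.95 ± 0.08, adjusted p = 1.1e-05) and Gbp2 from 93.6, 82.8 and 23.1 CPM at day 0 to 12.6, 17.2 and 6.05 CPM at day 2 (log2 fold change -2.38 ± 0.18, adjusted p = 0.00010), while Bst2 (tetherin) rose from 54.5, 46.2 and 29.8 CPM at day 0 to 142, 148 and 189 CPM at day 2 (log2 fold change 1.89 ± 0.27, adjusted p = 0.0034), with Stat2 (1.25 ± 0.09) and Rsad2 (1.71 ± 0.35).

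Genes of cholesterol synthesis and uptake rose almost without exception. Of 24 genes 23 were called higher, 13 of them at least 2-fold, with a median log2 fold change of 1.04 beside 31.2% called higher and a median of 0.02 over all genes. Cells make cholesterol from acetyl-CoA through the mevalonate pathway, and the factor Srebp2 (Srebf2) turns its genes on when membrane sterol runs low. In the mevalonate arm Hmgcs1, which makes HMG-CoA, rose from 382, 399.7 and 384 CPM at day 0 to 959.9, 956 and 632 CPM at day 2 (log2 fold change 1.10 ± 0.12, adjusted p = 0.00038). Both HM1 series ended higher than #1A4, and no day 0 sample reached a day 2 sample. Mvd, the decarboxylase of the pathway, rose from 41.6, 42.3 and 54.9 CPM at day 0 to 143, 136 and 152 CPM at day 2 (log2 fold change 1.64 ± 0.08, adjusted p = 1.7e-05), and Fdps, which makes farnesyl diphosphate, from 109, 105 and 107 CPM at day 0 to 267, 269 and 267 CPM at day 2 (log2 fold change 1.33 ± 0.06, adjusted p = 1.6e-05).

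In the sterol arm Sqle, the squalene epoxidase, rose from 137, 143 and 136 CPM at day 0 to 292, 302 and 255 CPM at day 2 (log2 fold change 1.02 ± 0.07, adjusted p = 5.2e-05) and Lss, the lanosterol synthase, from 104, 97.2 and 108 CPM at day 0 to 318, 329 and 313 CPM at day 2 (log2 fold change 1.64 ± 0.07, adjusted p = 1.4e-05). Msmo1 and Dhcr7 had log2 fold changes of 1.92 ± 0.14 and 1.49 ± 0.10. Tm7sf2, a sterol reductase, rose from 5.70, 4.44 and 6.09 CPM at day 0 to 25.1, 22.5 and 27.7 CPM at day 2 (log2 fold change 2.22 ± 0.11, adjusted p = 1.9e-05). Ebp, the sterol isomerase between these steps, was the exception and fell from 27.4, 31 and 27.9 CPM at day 0 to 13.8, 13.1 and 9.61 CPM at day 2 (log2 fold change -1.25 ± 0.12, adjusted p = 0.00021). The regulator Srebf2 itself rose from 232, 256 and 218 CPM at day 0 to 534, 512 and 483 CPM at day 2 (log2 fold change 1.12 ± 0.07, adjusted p = 4.2e-05). The sterol exporter Abca1, a target of the sterol sensor LXR, fell from 24.7, 28 and 27.6 CPM at day 0 to 1.82, 1.99 and 2.005 CPM at day 2 (log2 fold change -3.79 ± 0.12, adjusted p = 5.8e-06). Another sterol exporter among the LXR targets, Abcg1, rose (log2 fold change 0.74 ± 0.17, adjusted p = 0.0088), a call that was lost without HM1 series 1 or series 2 (adjusted p = 0.066 and 0.053). Of the 6 genes of the LXR list 1 rose, 2 fell and 3 were not called, with a median of -0.11, and without HM1 series 1 or series 2 none rose and 1 fell.

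The promoters of these genes were read from RefSeq on GRCm38.p6, since the members moved together. Of the 24 genes 16 had an entry, and the 250 bases before the start were searched for 11 motifs on both strands. The pentamer CCAAT, the box that NF-Y binds beside sterol elements in known promoters, was in all 16 genes, against 40.5% of the 11704 tested genes with an entry. A gene with several listed starts counted where any of its windows held a match, here and for all genes. By window the pentamer was in 16 of the 19 windows of these genes, against 35.2% of the 14923 windows of tested genes, and 1 of the 2 Pmvk windows and 2 of the 3 Dhcr7 windows held none. By gene it was in 37.2% of genes called at least 2-fold higher and 39.2% of those called at least 2-fold lower. Among other lists it was in 11 of 19 genes with an entry in the amino acid and Atf4 list below and 5 of 9 of fatty acid synthesis. It was in 6 of 13 each of the LIF and immediate early lists, 4 of 11 naive genes and 2 of 9 formative and primed genes. The sterol element core TCACNCCAC was in 1 of the 16 (Hmgcs1) and in 1.29% of all. The 5 windows below are shown because they hold these motifs and overlap no annotated exon. Capitals mark CCAAT in either orientation and, in Hmgcs1, the sterol core. Hmgcs1 is chr13:119690101-119690350, plus strand; Mvd is chr8:122443423-122443672, minus strand; Pmvk is chr3:89454291-89454540, plus strand; Sc5d is chr9:42264301-42264550, minus strand; and Ebp is chrX:8193513-8193762, minus strand.
Hmgcs1: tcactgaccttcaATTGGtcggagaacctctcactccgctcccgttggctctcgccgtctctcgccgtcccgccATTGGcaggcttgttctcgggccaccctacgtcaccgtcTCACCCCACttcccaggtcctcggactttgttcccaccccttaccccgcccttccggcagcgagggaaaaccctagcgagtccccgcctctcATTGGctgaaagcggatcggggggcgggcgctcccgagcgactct
Mvd: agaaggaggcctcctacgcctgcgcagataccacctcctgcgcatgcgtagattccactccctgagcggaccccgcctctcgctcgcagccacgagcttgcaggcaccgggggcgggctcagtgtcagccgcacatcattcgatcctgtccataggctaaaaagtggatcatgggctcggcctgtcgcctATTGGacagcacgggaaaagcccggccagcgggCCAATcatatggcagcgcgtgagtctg
Pmvk: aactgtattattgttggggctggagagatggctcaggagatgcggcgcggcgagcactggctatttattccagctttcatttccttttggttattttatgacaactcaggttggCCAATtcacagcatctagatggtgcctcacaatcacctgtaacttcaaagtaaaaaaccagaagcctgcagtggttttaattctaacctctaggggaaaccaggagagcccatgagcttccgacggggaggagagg
Sc5d: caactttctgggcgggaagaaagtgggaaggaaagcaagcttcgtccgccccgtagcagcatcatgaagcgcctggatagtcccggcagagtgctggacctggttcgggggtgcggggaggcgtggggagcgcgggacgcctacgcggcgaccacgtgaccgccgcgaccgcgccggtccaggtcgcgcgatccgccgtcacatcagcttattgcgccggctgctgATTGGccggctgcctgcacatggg
Ebp: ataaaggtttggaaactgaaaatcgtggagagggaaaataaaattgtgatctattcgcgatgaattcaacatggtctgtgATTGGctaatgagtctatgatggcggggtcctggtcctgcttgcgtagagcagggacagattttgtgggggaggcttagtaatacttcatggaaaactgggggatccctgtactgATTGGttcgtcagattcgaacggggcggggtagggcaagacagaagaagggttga
The sterol core of Hmgcs1 lies among 3 CCAAT pentamers, and Mvd has 2 within 60 bases of its start. Ebp, the member that fell, has 2 as well, so the pentamer did not separate it from the genes that rose. The remaining 9 motifs were found in 0 to 2 of the 16 genes: TGATGNAAT, TGATGNAA, TTCCNGGAA, TTCNNNGAA, TGANTCA, TGACGTCA, CCACACCC, ATGCAAAT and TCACGTGA. A match to TGATGNAAT or to TTCCNGGAA is also one to TGATGNAA or to TTCNNNGAA. The motifs were chosen with the behaviour of the lists known, so these shares are a description, and a match is not evidence of binding.

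Fatty acid synthesis genes rose in parallel. Of 12 genes 11 were called higher, 4 at least 2-fold, and none lower, with a median of 0.79. Fads2 and Fads1, desaturases that make long polyunsaturated fatty acids, rose from 52.3, 43.7 and 42.9 CPM at day 0 to 199, 200.2 and 146 CPM at day 2 (log2 fold change 1.96 ± 0.09, adjusted p = 1.6e-05), and from 66.2, 64.0 and 65.5 CPM at day 0 to 202, 209 and 146 CPM at day 2 (log2 fold change 1.49 ± 0.11, adjusted p = 7.6e-05). Scd1, which makes oleate, rose from 106, 110.2 and 114 CPM at day 0 to 420.5, 450.3 and 328 CPM at day 2 (log2 fold change 1.85 ± 0.11, adjusted p = 3.3e-05), and its relative Scd2 from 577, 748 and 806 CPM at day 0 to 1506, 1492 and 1055 CPM at day 2 (log2 fold change 0.92 ± 0.19, adjusted p = 0.0069). Fasn, the synthase, rose from 949, 951 and 809 CPM at day 0 to 1690.3, 1601 and 1299.6 CPM at day 2 (log2 fold change 0.76 ± 0.07, adjusted p = 0.00018), and Acaca, which supplies its malonyl-CoA, from 61.2, 54.3 and 63.4 CPM at day 0 to 126, 120.97 and 113 CPM at day 2. Srebf1, the factor most tied to this branch, was at 103, 117 and 88.1 CPM at day 0 and 136, 127 and 91.7 CPM at day 2 and was not called (adjusted p = 0.081). At day 2 #1A4 was the lowest of the 3 series in Fads1, Fads2, Scd1, Scd2, Fasn and Acaca.

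**Figure D4:**
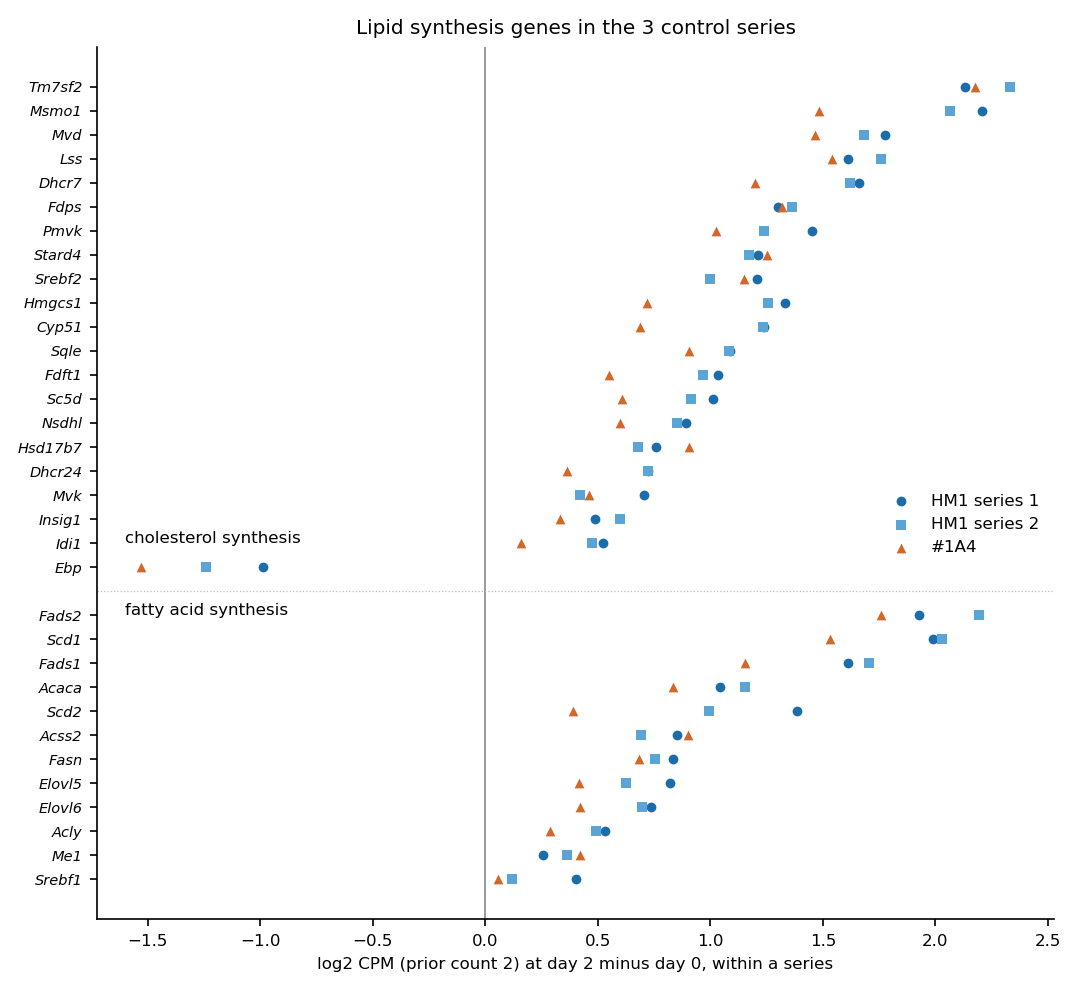
Difference in log2 CPM between day 2 and day 0 (x axis, prior count 2) within each control series, for 21 of the 24 genes of the cholesterol list and 12 of fatty acid synthesis (y axis). Each gene has 3 points, 1 per series, and all lie right of 0 except those of Ebp, with #1A4 at the left in most genes.

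Amino acid synthesis and transport genes under the transcription factor Atf4 rose as well. Of 20 genes 16 were called higher, 9 at least 2-fold, and none lower, with a median of 0.95. Without HM1 series 2, 11 were called higher and the median was 0.86, and without a filter on low counts 12 were. In the fit of 18 samples 13 were called higher and 1 lower, and without #1A4 18 were higher and 1 lower. Phgdh and Psat1, the first steps of serine synthesis, rose from 89.4, 88.1 and 83.1 CPM at day 0 to 178, 173 and 183 CPM at day 2 (log2 fold change 1.04 ± 0.07, adjusted p = 4.4e-05), and from 415, 415 and 405 CPM at day 0 to 837, 848 and 689 CPM at day 2 (log2 fold change 0.94 ± 0.08, adjusted p = 0.00012). Aldh18a1 of proline synthesis rose from 38.7, 38.9 and 64.3 CPM at day 0 to 171, 179 and 149 CPM at day 2 (log2 fold change 1.86 ± 0.21, adjusted p = 0.0010). The mitochondrial enzyme gene Pck2 rose from 17.8, 19.1 and 31.4 CPM at day 0 to 114, 119 and 95.5 CPM at day 2 (log2 fold change 2.31 ± 0.23, adjusted p = 0.00071), and the lipoprotein receptor gene Vldlr from 3.55, 6.99 and 6.68 CPM at day 0 to 34.0, 36.8 and 29.1 CPM at day 2 (log2 fold change 2.58 ± 0.22, adjusted p = 0.00015). These 5 genes showed no overlap between the days, which held for 64.3% of all genes tested. The tRNA synthetase genes Sars and Aars had log2 fold changes of 1.01 ± 0.08 and 0.79 ± 0.12, and the transporter gene Slc7a5 of 0.91 ± 0.14.

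The stress genes of this list were the most variable at day 0. Chac1, which degrades glutathione, was at 4.52, 2.55 and 25.1 CPM at day 0 and 34.2, 51.7 and 41.3 CPM at day 2 (log2 fold change 2.56 ± 0.76, adjusted p = 0.040), and Trib3 at 12.4, 14.2 and 41.1 CPM at day 0 and 58.4, 69.1 and 64.5 CPM at day 2 (log2 fold change 1.72 ± 0.38, adjusted p = 0.016), with #1A4 the highest series at day 0 in both. The Chac1 call was lost without HM1 series 1 (adjusted p = 0.13) or series 2 (adjusted p = 0.30), and without the series as a block (adjusted p = 0.071). Asns, the asparagine synthetase, was at 395, 513 and 357 CPM at day 0 and 391, 397 and 332 CPM at day 2 and was not called (adjusted p = 0.14). Atf4 was at 221, 183 and 261 CPM at day 0 and 325, 345 and 258 CPM at day 2, and its call lay at the threshold (adjusted p = 0.0498). Genes of the unfolded protein response of the endoplasmic reticulum, by contrast, had a median of -0.48: 7 of 11 fell, among them the chaperone Hspa5 (BiP) from 1186, 1008 and 733 CPM at day 0 to 566, 509 and 615 CPM at day 2 (log2 fold change -0.77 ± 0.16, adjusted p = 0.0067), and Herpud1 rose. The Hspa5 call was lost without HM1 series 2 (adjusted p = 0.068). No test compared the 2 lists.

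The short form TGATGNAA of the amino acid response element was in 6 of the 19 promoters of this list with an entry (Aars, Asns, Chac1, Pck2, Slc7a11 and Vldlr) and in 2.38% of all 11704. Asns and Slc7a11, 2 of the 6, were not called. The window of Pck2 (chr14:55540016-55540265, plus strand), which overlaps no annotated exon, is shown because this gene rose and holds the motif, here on the opposite strand and in capitals.
Pck2: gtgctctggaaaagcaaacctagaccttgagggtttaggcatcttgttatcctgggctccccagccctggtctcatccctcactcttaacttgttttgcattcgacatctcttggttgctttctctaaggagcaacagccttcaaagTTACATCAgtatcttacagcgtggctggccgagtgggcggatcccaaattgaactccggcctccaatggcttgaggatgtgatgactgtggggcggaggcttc
The match begins 103 bases before the start.

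Of 19 tested genes of the mitochondrial genome 15 fell and none rose. Of its 13 protein genes, mt-Nd3, mt-Nd4l, mt-Co2, mt-Co3, mt-Atp6 and mt-Atp8 were not tested, and nothing is said of them here. The 7 tested protein genes were all called lower, with a median log2 fold change of -0.79. Together they were at 23941 ± 3643 CPM at day 0 and 14207 ± 1807 CPM at day 2. The cytochrome oxidase subunit mt-Co1 went from 10008, 9694 and 7551 CPM at day 0 to 6002, 6496 and 5159 CPM at day 2 (log2 fold change -0.62 ± 0.08, adjusted p = 0.00073) and mt-Nd1 of complex I from 4941, 4633 and 4172 CPM at day 0 to 2307, 2399 and 1958 CPM at day 2 (log2 fold change -1.05 ± 0.08, adjusted p = 6.9e-05). Nuclear genes for the same complexes moved by far less: of 52, 27 fell and 2 rose, none 2-fold, with a median of -0.24. Cox5a (-0.73 ± 0.07) and Uqcrb (-0.71 ± 0.07) fell the most. In the fit of 18 samples 3 of the 7 mitochondrial and 6 of the 52 nuclear genes were called lower.

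In glycolysis genes of the same enzyme or transporter family differed in direction. The glucose transporter Slc2a3 fell from 1182, 1304 and 1195 CPM at day 0 to 522, 476 and 578 CPM at day 2 (log2 fold change -1.23 ± 0.09, adjusted p = 7.8e-05), and Slc2a1 rose from 615, 639.7 and 502 CPM at day 0 to 1031, 995 and 813 CPM at day 2 (log2 fold change 0.69 ± 0.07, adjusted p = 0.00021). Hexokinase 2 (Hk2) fell from 411, 413 and 389 CPM at day 0 to 167, 159.8 and 149.8 CPM at day 2 (log2 fold change -1.35 ± 0.06, adjusted p = 1.6e-05). Of the phosphofructokinases, Pfkp fell (-1.33 ± 0.11) and Pfkm rose (1.48 ± 0.09). Pfkp overlaps the opposite-strand gene Pitrm1 over 18% of its transcript. Over the list 8 of 19 genes fell and 5 rose, and without HM1 series 1 or series 2 5 fell.

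The cell cycle list fell slightly. Of 28 genes 17 were lower and 2 higher, none 2-fold, with a median of -0.24. Cyclin E1 (Ccne1) had a log2 fold change of -0.66 ± 0.07, Pcna of -0.53 ± 0.07 and Mcm5 of -0.53 ± 0.07. The inhibitors Cdkn1b (0.44 ± 0.07) and Cdkn1c (0.66 ± 0.23) were the 2 that rose, and Cdkn1c was not called without HM1 series 1 (adjusted p = 0.26) or series 2 (adjusted p = 0.16). Mki67 and Top2a, markers of dividing cells, were not called (adjusted p = 0.12 and 0.94). Without HM1 series 1 and without series 2, 9 and 10 of the genes were called lower.

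Enzymes that write and erase DNA methylation did not share a direction. Dnmt3a rose from 115, 82.9 and 178 CPM at day 0 to 399, 478 and 473 CPM at day 2 (log2 fold change 1.91 ± 0.22, adjusted p = 0.00100) beside Dnmt3b, whereas their cofactor Dnmt3l fell from 178, 187 and 317 CPM at day 0 to 61.4, 89.0 and 89.7 CPM at day 2 (log2 fold change -1.48 ± 0.14, adjusted p = 0.00023). Tet1 (783, 785 and 1043 CPM at day 0 to 231, 302 and 318 CPM at day 2) and Tet2 (132.9, 158 and 198 CPM at day 0 to 14.7, 17.5 and 14.7 CPM at day 2), which oxidise methylcytosine, fell, and Tet3 rose from 14.9, 14.9 and 15 CPM at day 0 to 47.5, 54.2 and 36.8 CPM at day 2 (log2 fold change 1.62 ± 0.12, adjusted p = 7.1e-05). The maintenance enzyme Dnmt1 was at 426, 448 and 384 CPM at day 0 and 417, 417 and 384 CPM at day 2 and was not called (adjusted p = 0.59). Of 15 germline genes that promoter methylation is known to silence, 7 rose and 4 fell. Mael (1.20 ± 0.18) and Ddx4 (1.00 ± 0.11) were among those that rose, and Stra8 (-2.09 ± 0.37) and Dazl (-1.09 ± 0.19) among those that fell. Without HM1 series 2, 4 germline genes were called higher and 4 lower.

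Imprinted genes were mostly higher, 12 of 17, with 2 lower and a median of 0.70. Grb10 (117, 109 and 29.7 CPM at day 0 to 332, 293 and 171 CPM at day 2), Mirg (1.63 ± 0.12), Nnat (1.62 ± 0.11), Meg3 (1.43 ± 0.25) and Snrpn (1.25 ± 0.13) rose, and Plagl1 (-1.79 ± 0.13) and Peg10 (-1.56 ± 0.10) fell. The 2 alleles of an imprinted gene are not separated in these counts. Without #1A4, 11 were higher and 4 lower.

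Of 18 genes of cell adhesion and of the epithelial and mesenchymal states 9 rose, 6 fell and 3 were not called, with a median of 0.29. In the fit of 18 samples 3 rose and 5 fell. Both kinds of gene moved in both directions: of the splicing regulators of epithelial cells Esrp1 rose (0.93 ± 0.11) and Esrp2 fell (-0.66 ± 0.11), and of the repressors of epithelial genes Zeb2 rose (0.44 ± 0.16). Cdh1 (E-cadherin) went from 950.1, 846 and 877 CPM at day 0 to 1154, 1266 and 1344 CPM at day 2 (log2 fold change 0.49 ± 0.09, adjusted p = 0.0027) and Epcam from 166, 132 and 127 CPM at day 0 to 286, 275 and 263 CPM at day 2 (log2 fold change 0.97 ± 0.08, adjusted p = 1.0e-04). The tight junction genes Cldn3, Cldn7 and Ocln had log2 fold changes of 2.31 ± 0.27, 1.77 ± 0.21 and 1.79 ± 0.10. Vim fell from 372, 426 and 208 CPM at day 0 to 135, 129 and 97.4 CPM at day 2 (log2 fold change -1.43 ± 0.12, adjusted p = 0.00011), Fn1 from 1926, 1733 and 1439 CPM at day 0 to 566, 765 and 643 CPM at day 2 (log2 fold change -1.37 ± 0.13, adjusted p = 0.00019) and Zeb1 from 20.7, 19.8 and 13.9 CPM at day 0 to 6.70, 5.32 and 3.26 CPM at day 2. Vim and Fn1 are also strongly expressed by fibroblasts, whose markers are given above, 5 of 12 lower and 3 higher. Cdh2 (N-cadherin), which replaces Cdh1 in the neural plate, was at 20.5, 28.1 and 18.2 CPM at day 0 and 31.9, 26.8 and 16.4 CPM at day 2 and was not called (adjusted p = 0.46). The Cdh1 call was lost in the fit of 18 samples (adjusted p = 0.41).

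Genes that respond to nutrients and hormones of the medium differed in direction. The insulin receptor Insr rose from 17.2, 16.1 and 18.9 CPM at day 0 to 51.7, 48.4 and 43.7 CPM at day 2 (log2 fold change 1.47 ± 0.10, adjusted p = 5.8e-05) and Igf1r by a log2 of 0.98 ± 0.08, and 6 of 10 genes of the insulin and FoxO list rose and none fell. Of 8 glucocorticoid targets 1 rose and 4 fell, with a median of -0.31, and without #1A4 2 rose. The one that rose was Tsc22d3 (Gilz), from 3.15, 3.61 and 3.44 CPM at day 0 to 16.1, 18 and 15.8 CPM at day 2 (log2 fold change 2.29 ± 0.13, adjusted p = 2.8e-05), while Sgk1, induced by both glucocorticoid and serum, fell from 402, 364 and 381 CPM at day 0 to 84.9, 94.2 and 128 CPM at day 2 (log2 fold change -1.92 ± 0.13, adjusted p = 5.4e-05). Of 8 genes of metal handling 1 rose (the ferritin chain Fth1, 0.49 ± 0.07) and 4 fell, with a median of -0.28, and without HM1 series 2 2 fell. The transferrin receptor Tfrc fell from 524, 555 and 679 CPM at day 0 to 228, 232 and 235 CPM at day 2 (log2 fold change -1.33 ± 0.08, adjusted p = 4.1e-05). Of 13 selenoprotein genes 7 fell, among them the peroxidases Gpx1 (-1.04 ± 0.08) and Gpx4 (-1.19 ± 0.12), and 4 rose, among them Selenop (1.28 ± 0.15). Of 12 targets of the oxidant sensor Nrf2, 5 fell and 1 rose, and without HM1 series 1 or series 2 3 fell. Of 16 p53 targets 4 rose and 2 fell, with a median of 0.06. Without #1A4 8 fell and the median was -0.19, and it was 0.18 and 0.21 without HM1 series 1 and series 2. Of 12 hypoxia targets 4 rose and 3 fell, with a median of 0.05, which was -0.0021 without #1A4 and 0.15 without HM1 series 2. Crabp2, which carries retinoic acid to its receptors, rose from 4.47, 3.38 and 3.95 CPM at day 0 to 43.8, 44.2 and 52.0 CPM at day 2 (log2 fold change 3.57 ± 0.12, adjusted p = 7.4e-06), and Stra6, a retinol transporter, from 0.350, 0.460 and 0.313 CPM at day 0 to 3.54, 3.54 and 3.85 CPM at day 2 (log2 fold change 3.25 ± 0.25, adjusted p = 8.7e-05). Cyp26a1, the retinoic acid hydroxylase, was at 5.97, 13.2 and 7.77 CPM at day 0 and 4.72, 5.23 and 4.17 CPM at day 2, and its call was lost without HM1 series 2 (adjusted p = 0.089). Aldh1a3, which makes retinoic acid, fell from 5.92, 4.07 and 1.41 CPM at day 0 to 0.176, 0.0913 and 0.256 CPM at day 2 (log2 fold change -4.25 ± 0.54, adjusted p = 0.00069). In all 6 of 13 retinoid genes fell and 3 rose, and without HM1 series 2 2 fell and 2 rose.

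Among all genes with a standard name and at least 5 CPM in the higher group, the 10 with the deepest fall included Klf4, Tbx3, Lefty2, Fos and Fosb. The other 5 were Ereg, Il1rl1, Krt42, Trpm1 and Mras. Ereg, an EGF receptor ligand, was at 51.7, 14.1 and 3.98 CPM at day 0 and 0.242, 0.251 and 0.334 CPM at day 2 (log2 fold change -5.96 ± 0.74, adjusted p = 0.0025), and its call was lost without HM1 series 2 (adjusted p = 0.12). Il1rl1, the receptor of interleukin 33, was at 67, 28.4 and 12.2 CPM at day 0 and 1.05, 0.548 and 0.216 CPM at day 2 (log2 fold change -5.85 ± 0.14, adjusted p = 4.7e-06), and the keratin gene Krt42 at 49.5, 71 and 37.8 CPM at day 0 and 1.41, 1.67 and 0.786 CPM at day 2 (log2 fold change -5.36 ± 0.12, adjusted p = 4.7e-06). The day 0 levels of Ereg and Il1rl1 differed several-fold between series, highest in HM1 series 1 and lowest in #1A4. Mras, a small GTPase, was at 22.8, 34.1 and 51 CPM at day 0 and 1.56, 1.41 and 0.747 CPM at day 2 (log2 fold change -4.80 ± 0.42, adjusted p = 0.00042), with the opposite order at day 0 and an adjusted p of 0.052 without HM1 series 2. Trh, which encodes thyrotropin-releasing hormone, had the deepest fall in CPM after mt-Co1, Hsp90ab1, mt-Nd1, mt-Cytb, Npm1 and Ncl. It went from 1836, 1653 and 1421 CPM at day 0 to 240.1, 213 and 134 CPM at day 2 (log2 fold change -3.10 ± 0.11, adjusted p = 9.2e-06) and was picked after its values were seen.

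The 10 steepest rises were in genes that were barely expressed at day 0. Fut1, a fucosyltransferase (chr7:45617606-45621059 in mm10), was at 0.175, 0.115 and 1.02 CPM at day 0 and 12.4, 16.2 and 12.7 CPM at day 2 (log2 fold change 5.26 ± 0.59, adjusted p = 0.00093). The stathmin Stmn4 was at 0.375, 0.368 and 0.0781 CPM at day 0 and 7.91, 4.56 and 10 CPM at day 2, the receptor Epha8 at 0.425, 0.230 and 0.547 CPM at day 0 and 7.27, 7.35 and 9.44 CPM at day 2, and Trim66 at 0.749, 1.08 and 0.938 CPM at day 0 and 14.9, 21.8 and 17.6 CPM at day 2. Several of the 10 are known from neurons or neural development: Stmn4, Epha8, Astn1 (4.24 ± 0.23) and Lrrn1 (4.15 ± 0.24). The remaining ones were Slc45a1 (4.23 ± 0.31), Galnt16 (4.22 ± 0.28), Zfp467 (4.19 ± 0.45) and Vat1l (4.16 ± 0.23).

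The 2 control lines were compared in how far their genes changed. An interaction of line and day called 479 genes (2.87% of 16679), with a more positive change in #1A4 for 314 and a more negative one for 165. At an unadjusted p below 0.05 it found 3205 genes. With 1 series of #1A4 against 2 of HM1 the test has 1 residual degree of freedom. It called no gene when the 12 control and knockout samples of both days shared the fit, nor in that shared fit when either HM1 series was left out. DESeq2 called 283. The skeletal actin gene Acta1 was at 11.9, 19.4 and 2.38 CPM at day 0 and 14.1, 16.1 and 16.1 CPM at day 2, and the change in #1A4 minus that in HM1 was a log2 of 2.78 ± 0.29, adjusted p = 0.0026. Sox1 differed by a log2 of -3.77 ± 0.47, adjusted p = 0.0063, and Gbx2 by a log2 of -2.85 ± 0.35, adjusted p = 0.0063. Xist, the RNA that silences an X chromosome, was at 17.8, 14.3 and 7.27 CPM at day 0 and 2.44, 3.83 and 13 CPM at day 2 and differed by a log2 of 3.20 ± 0.37, adjusted p = 0.0065. Xist overlaps its antisense gene Tsix over 11.0% of its transcript, and Tsix held counts equal to 72.1% of those of Xist. The share of Tsix reads in the Xist counts was not tested. Fut1 differed by a log2 of -2.97 ± 0.50, adjusted p = 0.020, with #1A4 above HM1 at day 0 and within its range at day 2.

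**Figure D5:**
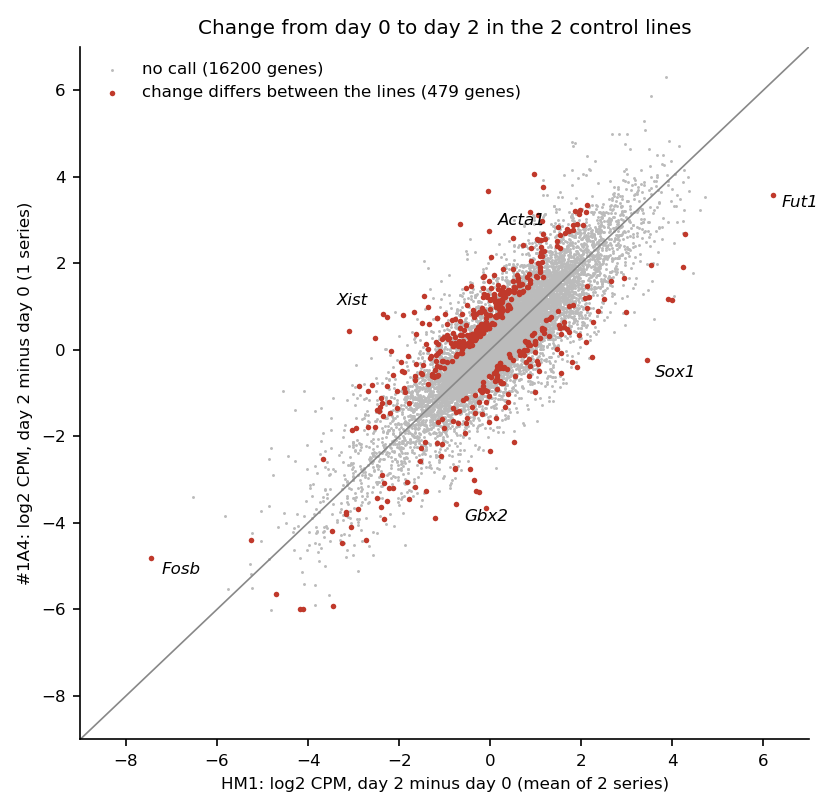
Difference in log2 CPM (prior count 2) between day 2 and day 0 in HM1 (x axis, mean of 2 series) and in #1A4 (y axis, 1 series) for 16679 genes. The diagonal marks equal change, and red points are the 479 genes whose change differed between the lines in the edgeR interaction test. Most genes lie along the diagonal, Sox1 and Gbx2 lie below it, and Xist and Acta1 above it.

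The same change was set against that of the 3 knockout lines, 14, 19 and 319, over 12 samples. The interaction of genotype and day called 0 of 17551 genes (0%) in edgeR, and DESeq2 called 41. At an unadjusted p below 0.05 edgeR found 887 genes (5.05%). The biological coefficient of variation, a measure of spread between samples, was 0.253 in this fit and 0.117 in the day comparison. At day 2 lines 14, 19 and 319 held 51656411, 16466730 and 23125954 gene counts. With this spread, a lack of calls does not show that the genotypes changed alike.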

How the data were processed

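Polyadenylated RNA of 6 control samples, 3 at each day, was sequenced in 4 technical libraries a sample with a stranded kit, per the labels' protocols. The deposited files hold raw read counts per Ensembl transcript that the authors made; STAR 2.4.0k, HTSeq, SAMtools and bcl2fastq 2.17.1.14, with the mouse build mm10, are named in the submitters' processing notes. The annotation release, the counting mode and the use of strand are not given in the sources used here, so a gene and an overlapping opposite-strand gene may share reads. Of 110379 transcript identifiers 108214 matched GENCODE M21, in 45321 genes; the unmatched ones held 1.44% to 2.48% of counts and were left out. Reads were counted on several transcripts of a gene, the sum over transcripts being 2.61 to 2.92 times that over genes, so each gene was represented by its transcript with the highest total, and the longest transcript was the alternative. Coordinates are those of that transcript. Technical libraries differed by no more than sampling noise (chi-square per degree of freedom from 1.01 to 1.03) and were summed.

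Genes were tested with edgeR 4.0.16 (quasi-likelihood, robust) after its low-count filter and TMM scaling, with day and series as terms, which leaves 2 residual degrees of freedom. P-values were adjusted by Benjamini-Hochberg over all genes tested, and a gene is called at an adjusted p below 0.05. Series pair the samples by line and replicate in the labels, and deviations from the day means correlated by 0.25, 0.20 and 0.37 within the series. Between the HM1 series they correlated by 0.22 (day 0 of series 2 with day 2 of series 1) and 0.09 (the reverse). Between HM1 and #1A4 they correlated by -0.32 to -0.19. These values separate the lines and do not show that the HM1 replicates are paired. The line interaction used the same 6 samples, and the genotype interaction 12. Tested on simulated data for the day comparison over 16679 genes, the fit recovered 85% of 2-fold and 99% of 4-fold changes, with 3 false calls among 187. The simulation changed far fewer genes than were called in the data, as many up as down. Its genes shared 1 dispersion apart from a term for count level, and their changes were equal in all series. The data differ in these points, so the rates may not carry over to them. The alternatives were DESeq2 1.42.0, limma-voom (limma 3.58.1), median-ratio scaling, other count filters, other transcripts, other sample sets and leaving out each series. Bounds for genes with at most 3 counts in each sample of a day cover counting error only. Standard errors and SDs include the spread between samples.

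The members and gene lists were chosen with earlier results of these data known. Named genes are the 10 steepest called changes in each direction (at least 5 CPM in the higher group, the same sign in 3 series, no clone name), up to 4 called members a list by size, a set of key markers, and the 5 largest called line interactions; other list members were named after their values were seen to show the rest of a list. Single values of some list members are not reported here. Promoter windows and their sequences come from RefSeq on GRCm38.p6 (32851 entries), matched by symbol for 11704 of the 16679 genes.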

Additional observations from a re-analysis of the deposited data

Results flagged for a closer look

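The change from day 0 to day 2 differed between #1A4 and HM1 for 479 genes by the interaction test, 34 of them among the genes named here. Values are log2, the change in #1A4 minus that in HM1, from edgeR. #1A4 is 1 series, and no gene was called with 12 samples in the fit, so each value describes these 3 series. Of the called genes 201 changed less in #1A4 and 176 changed in opposite directions in the 2 lines.

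Sox1 (-3.77), Fut1 (-2.97), Gbx2 (-2.85), Xist (3.20) and Acta1 (2.78) had the largest differences. Some serum, muscle and adhesion genes had a more positive change in #1A4: Fosb (2.77), Cnn1 (1.84), Myl9 (1.51), Ccn2 (1.13), Amotl2 (0.84), Mmp2 (0.66) and Cldn7 (0.93). So had the stress genes Bbc3 (1.03), Ddit4 (0.69), Hspa5 (0.77) and Creld2 (0.59), the metallothioneins Mt2 (0.96) and Mt1 (0.80), and Fgf5 (1.34), Grb10 (1.06), Jag2 (0.74) and Tbx3 (0.88). The immediate early genes Fos, Egr1 and Egr3 were not called in the interaction test (adjusted p = 0.18, 0.25 and 0.24).

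The change was more negative in #1A4 for the Nodal antagonists Lefty2 (-0.94) and Lefty1 (-1.23), and for Mras (-1.86), Spry4 (-0.82), Myc (-0.73), Zfp42 (-0.64) and Tet2 (-0.57). The same held for the sterol genes Msmo1 (-0.65), Hmgcs1 (-0.57) and Abcg1 (-0.79), and for Pck2 (-1.05) and Aldh18a1 (-0.96).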

How the results depend on the processing

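Day 2 against day 0 gave 10123 called genes. Without the replicate block (series not a term) it was 9457, with DESeq2 9375, limma-voom 10250, median-ratio scaling 10172, no count filter 10342, a stricter filter 8951 and the longest transcript 9948; 9 control samples in the fit gave 10663. With all 18 samples in the fit it was 6494, and leaving out each series gave 7151 to 11104. Of the DESeq2 calls 9277 were shared, all in the same direction. At least 2-fold changes numbered 4007 without the block, 3708 with DESeq2 and 3597 to 4452 when each series was left out.

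The line interaction called 479 genes, 522 without the block, 283 with DESeq2, 1749 with no count filter, and 0 with 12 samples in the fit, a setting added after seeing the data. Without HM1 series 1 or series 2, on the spread of those 12 samples, it called 0, with 77 and 80 genes at an unadjusted p below 0.05. The genotype interaction called 0 genes in edgeR, 1 with no filter and 41 with DESeq2. The median of the formative list was 1.64 with DESeq2, 1.71 with the longest transcript and 1.498 to 1.71 with each series left out. That of neural progenitor genes was 1.02 to 1.20 with each series left out. The primitive endoderm median was 0.051 under the stricter filter, against -0.12, where fewer of its genes were tested.

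Of 198 named genes, 27 lost their call in the fit of 18 samples. Leaving out HM1 series 2 lost 24 calls, HM1 series 1 6 and #1A4 none; the cause was not tested. With 3 series from 2 lines, differences between lines rest on 1 sample a day of #1A4. Depth limits genes with few counts, such as those of the 2-cell list.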

Other observations

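Gene families outside the lists were collected by symbol after the data had been seen, and their counts are a description. The machinery of protein and RNA synthesis was slightly lower at day 2. Of 86 cytosolic ribosomal protein genes 66 fell and none rose, with a median log2 fold change of -0.32, and -0.41 to -0.25 over 8 other settings, among them median-ratio scaling and each series left out. No median of a family given here changed sign over these settings. Their levels can share reads with pseudogenes. Of 57 translation initiation factor genes 42 fell and 6 rose (median -0.37), of 79 mitochondrial ribosomal protein genes 46 fell and 11 rose (-0.29), and of 28 RNA polymerase subunits 17 fell and none rose (-0.41). Of 38 proteasome subunits 30 fell and 1 rose (-0.30). Nucleoporin genes, the family of Nup133, fell in 15 of 28 cases and rose in 3 (-0.21).

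Other families differed in direction. Of 61 potassium channel subunit genes 38 rose, 32 of them at least 2-fold, and 5 fell, with a median of 1.24. Of 20 Eph receptor and ephrin genes 11 rose and 6 fell (0.57), while their summed level went from 558 to 418.3 CPM, and of 20 semaphorin genes 10 rose and 3 fell (0.57). All 14 protocadherin alpha genes rose, with a median of 2.42. They share constant exons, so their counts are not independent and may be 1 signal. None of 22 protocadherin gamma genes was called (-0.14), and with log2 fold changes from -0.17 to -0.08 they too may be 1 signal. Serpin genes, inhibitors of proteases, fell in 14 of 20 cases, 12 at least 2-fold, and rose in 2 (-1.87). Of 6 measurable Hox genes 5 fell (-1.52).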
